A study of Zea mays with 48 samples.

Results

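The genes described here are 38 of the 23753 genes measured in maize seedling roots whose mean level was low after 6 h of tunicamycin, back near baseline at 12 h and low again at 48 h, in 2 waves. They were chosen by measured values: the mean CPM (counts per 1000000 reads of the library) of the 3 libraries at 0, 6, 12 and 48 h and in the 48 h mock. The baseline of a gene was the lower of its 0 h and mock means, both of at least 3 CPM, on the scale log2(CPM + 1). A member had to lie at least 0.8 below baseline at 6 h and at 48 h and no more than 0.3 below it at 12 h. In what follows, "low" and "near baseline" mean these limits. Of the 23753 genes, 19308 had the baseline level that the choice asks for.

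The seedlings were of the inbred line B73, described in the labels as 7-day-old, and roots were harvested. In 7 groups they were exposed to 5 µg/ml tunicamycin and collected at 0, 3, 6, 12, 24, 36 or 48 h. The mock was collected at 48 h, and no source used here says what it received. Each of the 8 groups has 3 libraries, numbered I, II and III, and the series calls them biological replicates. The series title places the study in persistent ER stress and the part of IRE1 in it. A mock of its own age exists at 48 h only, so the other times differ from 0 h in both treatment and time.

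Tunicamycin stops N-linked glycosylation at its first step, and unfolded glycoproteins then collect in the endoplasmic reticulum (ER). Plant cells answer with the unfolded protein response, in which the membrane sensor IRE1 splices the mRNA of the transcription factor bZIP60, and bZIP17 and bZIP28 are cut loose to enter the nucleus. IRE1 is also known to cut mRNAs that are translated at the ER, a process called regulated IRE1-dependent decay. Genes that lose transcript under ER stress are therefore of interest beside the chaperone genes that gain it. None of the 23753 identifiers matched the RefSeq table of 49888 genes, so 0 of the 38 members can be given a name, a product or a place in the genome here, and markers of root cell types could not be checked. In whole roots, fewer cells of a type and less RNA per cell cannot be told apart.

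Libraries held 7701856 to 38577551 reads, and the shallowest was library II of 24 h, of which lane 7 was not analysed here. Libraries were grouped by their names, which the deposited count table also uses, and the sample titles mostly disagree with those names. For 38 of the 47 lanes the title gives another time, among them every tunicamycin lane from 3 to 48 h, and all 6 lanes of 12 h are titled 48 h. For 6 lanes the title gives another treatment: 3 lanes named 12 h are titled mock and 3 lanes named mock are titled as treated. In 7 of the 23 libraries with both lanes the titles set the lanes of 1 library in different groups. The titles also give replicate numbers, and these differ between lanes of 1 library, as in library I of 0 h. In the order of the sample list, titles step through the groups by 3 replicates and then repeat. Names step through the libraries by 2 lanes, so the disagreement follows the position of a sample in the list. Every time, treatment and library number below therefore rests on the library names, and whether a library carries a wrong name was not tested. Library III stood apart from libraries I and II in several groups. On the first principal component of all genes (26.6% of the variance), it lay at 52.0 in the mock against -21.0 and -22.6, at 18.5 at 12 h against -53.0 and -47.0, and at 31.3 at 24 h against -31.1 and -65.1. Libraries I and II of a group differed by more than sampling noise, with a median chi-square of 2.04 to 24.0 times that of counting error, whereas pairs with library III reached 8.28 to 45.1 times. The highest value between libraries I and II was that of 24 h, where it was 22.9 between I and III. Library II of 24 h also had 13.7% of the genes with a baseline level low, against 1.40% and 1.88% in libraries I and III of 24 h.

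Over the 38 members, the median of the group means was 18.5 CPM in the mock, 25.9 CPM at 0 h, 20.1 CPM at 3 h, 8.38 CPM at 6 h, 30.0 CPM at 12 h, 17.4 CPM at 24 h, 10.6 CPM at 36 h and 8.33 CPM at 48 h. The members spanned a wide range of levels, with means over all 24 libraries of 2.71 to 468.4 CPM and a median of 18.5 CPM. Relative to baseline, the median member lay at -0.97 at 6 h, 0.11 at 12 h and -1.05 at 48 h on the log2 scale, while the median of the 19308 genes with a baseline level lay at 0.12, 0.13 and 0.12. These 3 times chose the members, so their values are a description. The deepest single values were -2.08 at 6 h and -2.22 at 48 h, and the second low point was the deeper one in 20 members and the first in 18. At 12 h, 24 members stood at or above baseline, up to 1.10, and 14 stood below it. The mock mean was the lower of the baseline means in 35 members.

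The limits of the choice cut through a continuous range. At 6 h the nearest gene inside the limit lay at -0.804 and the nearest outside at -0.799, among 109 genes that met all other conditions. The corresponding values were -0.818 and -0.795 at 48 h, and -0.272 and -0.330 at 12 h. Of the members, 11 lay within 0.1 of the limit at 6 h, 10 at 48 h and 5 at 12 h.

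**Figure D1:**
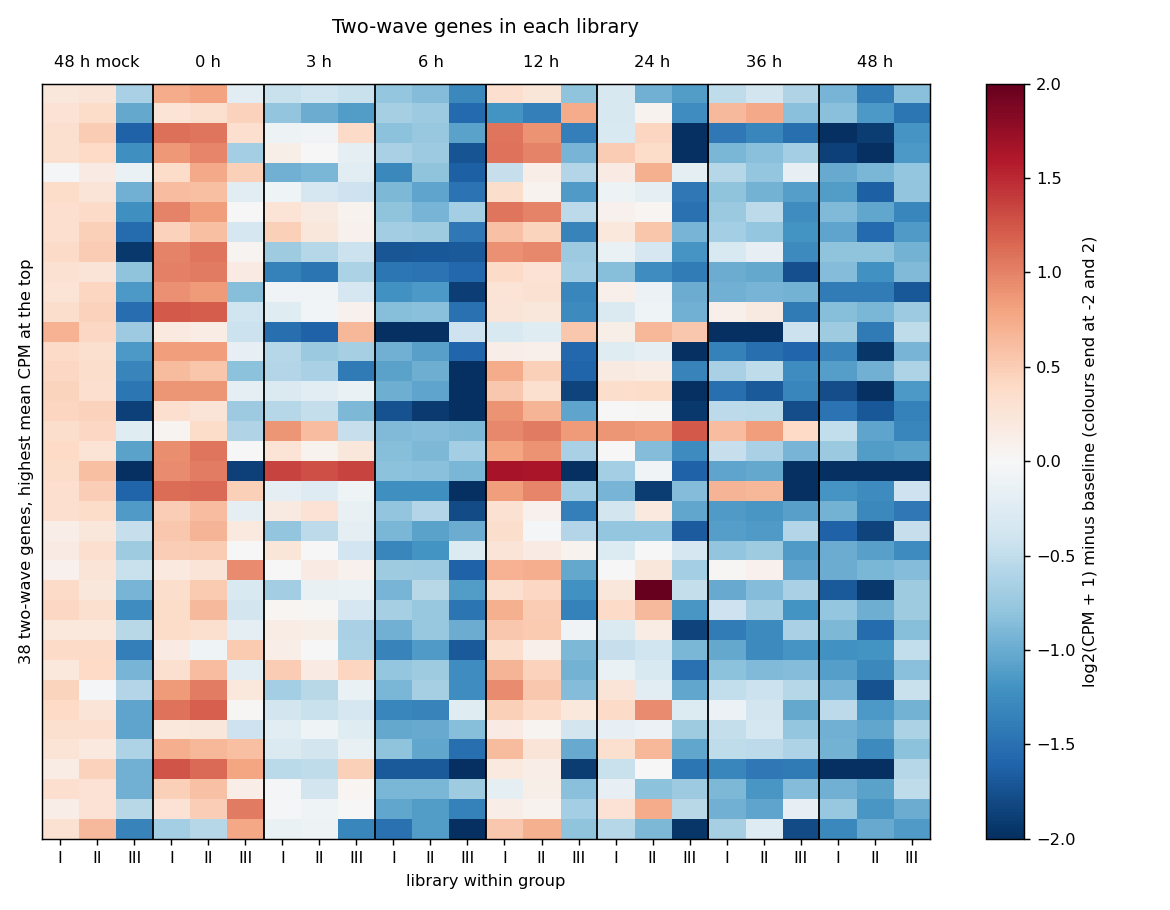
Level of the 38 members (rows, highest mean CPM at the top) in each of the 24 libraries (columns, libraries I, II and III of each group), as log2(CPM + 1) minus the baseline of the gene. Libraries I and II of 12 h are red in most rows, at medians of 0.51 and 0.35, whereas library III of 12 h is blue in most rows, at a median of -0.88.

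The return at 12 h was carried by 2 of the 3 libraries. The median member had 32.4 and 34.6 CPM in libraries I and II of 12 h and 10.3 CPM in library III. Taken one library at a time, 35 and 37 of the 38 members were near baseline in libraries I and II of 12 h, against 6 in library III, where 23 members were low. Of the genes with a baseline level, 89.2%, 87.9% and 93.2% were near baseline in libraries I, II and III of 12 h, and 1.12% were low in library III. Only 4 members were near baseline in every 12 h library. Library III of 12 h was the lowest of its group for 36 members, with a median log2 difference of -1.52 from libraries I and II, while it was the lowest for 34.0% of the genes with a baseline level. It lay above every 6 h library for 18 of the 38 members, against 36% of all genes. The 6 h and 12 h libraries entered the choice, so these counts are a description.

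The 48 h mock showed the same division. The median member had 8.53, 6.14 and 9.72 CPM in the tunicamycin libraries of 48 h, against 22.9 and 24.6 CPM in libraries I and II of the mock and 8.77 CPM in its library III. All 38 members had their lowest mock value in library III, compared with 40.9% of the genes with a baseline level. In that library 26 members were low, compared with 2.64% of those genes. All 48 h tunicamycin libraries lay below that library for 11 members, against 28.3% of all genes, and above it for 10, against 25.3% of all genes. In the same order of libraries, the median member had 9.11, 8.48 and 7.44 CPM at 6 h and 32.2, 33.4 and 19.2 CPM at 0 h. The median was thus low in all 3 libraries of 6 h and of 48 h, and high in libraries I and II alone of 12 h and of the mock. By single members, 20 were low in every 6 h library and 19 in every 48 h library. The mock and these times entered the choice, so the values are a description.

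**Figure D2:**
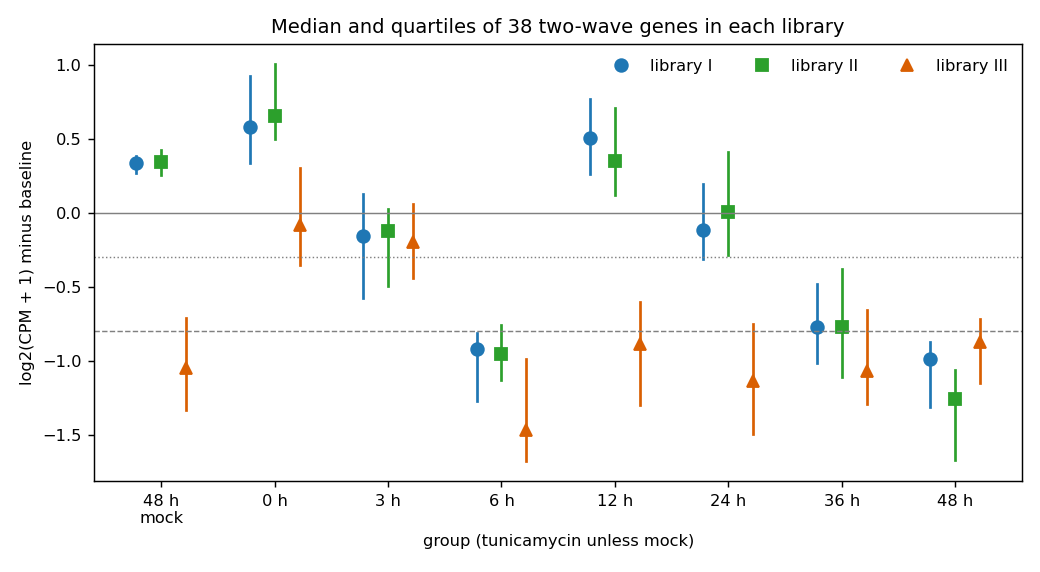
Median (symbol) and quartiles (line) of the 38 members in each library, as log2(CPM + 1) minus baseline, by group, with the limits of -0.3 (dotted) and -0.8 (dashed). Library III of the mock (-1.05), of 12 h (-0.88) and of 24 h (-1.14) lies with the 6, 36 and 48 h libraries, while the other libraries of those 3 groups lie at -0.12 or above.

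Counted by non-overlap of libraries, all 3 libraries of 6 h lay below all 3 of 0 h in 35 of 38 members, against 21.8% of all genes. All 3 libraries of 12 h lay above all 3 of 6 h in 17 members (16.3% of all genes), and all 3 libraries of 48 h lay below all 3 of 12 h in 17 (12.8% of all genes). The 48 h libraries lay below all mock libraries in 11 members (7.45% of all genes). With libraries I and II alone, which overlap less easily, these counts were 38, 37, 37 and 38, against 38.4%, 33.6%, 26.8% and 27.1% of all genes. The members were chosen on these groups, so nothing is read from the counts. The limits at 6, 12 and 48 h were met in every library by 0 of the 38 members, and in both libraries I and II by 19.

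The lanes of a library were compared in the same way. Library III of 12 h had a member median of 10.3 CPM on lane 6 and 10.4 CPM on lane 7, and library III of the mock 8.32 and 9.37 CPM. Libraries I and II of 12 h had 31.2 and 29.4 CPM on lane 6 and 37.0 and 38.2 CPM on lane 7. The lanes of the mock carry different indexes in the labels, and they are paired here by library number. At 12 h and in the mock, library III lay below libraries I and II on either lane. At 6 h the lanes of library I differed, with 38 members low on lane 6 and 18 on lane 7.

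**Figure D3:**
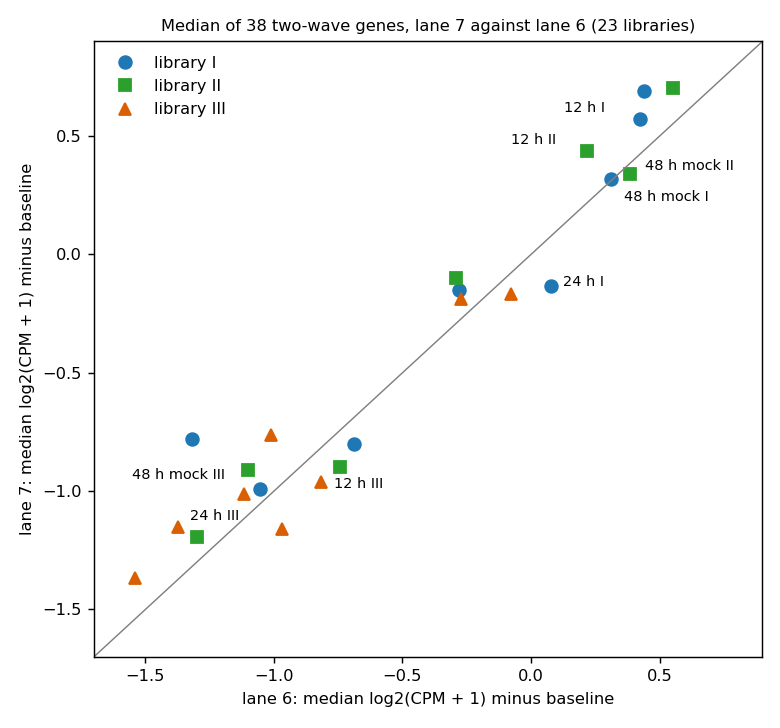
Median of the 38 members on lane 7 (y axis) against lane 6 (x axis), as log2(CPM + 1) minus baseline, for the 23 libraries with both lanes, with the line of equality. Library III of the mock lies at -1.12 and -1.01 on lanes 6 and 7, and library I of the mock at 0.31 and 0.32.

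Among single libraries, those of the mock moved the number of genes that the choice returned the most. Without library III of the mock the same limits gave 109 genes, 27 of them among the 38, and without library I or II of the mock they gave 18 or 19. With library III of every group left out there were 123 genes, 34 of them members. On library III alone there were 2 genes, and 0 of them were members. Leaving out any 1 library of the 0, 6, 12 or 48 h groups gave 32 to 51 genes. The source of the difference between library III and the others was not tested.

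Zm00001d014467 had the highest level of the members, with a mean of 468.4 CPM over 24 libraries. Libraries I, II and III held 678.9, 689.5 and 367.8 CPM in the mock, 968, 1008.1 and 500.9 CPM at 0 h, 423.4, 439.9 and 425.3 CPM at 3 h, and 338, 317.2 and 236.3 CPM at 6 h. It then had 728.9, 681.1 and 329.6 CPM at 12 h, 465.7, 298 and 266.2 CPM at 24 h, 407.5, 448.9 and 379.9 CPM at 36 h, and 302.1, 218.9 and 322.2 CPM at 48 h. All 6 h libraries were below all 0 h libraries, whereas library III of 12 h lay inside the 6 h range. The group means were 297.2 ± 53.7 CPM at 6 h, 579.9 ± 218 CPM at 12 h and 281 ± 54.8 CPM at 48 h (SD, n = 3 libraries each). At 36 h against 3 h, groups that did not enter the choice, its log2 fold change was -0.15 (SE 0.32, adjusted p = 0.828, edgeR), and the libraries overlapped.

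Zm00001d048705 was the second in level and met the limits in another way. Its libraries I, II and III held 554.7, 583 and 222.2 CPM in the mock, 550.1, 564.1 and 625.3 CPM at 0 h, 262.1, 226.9 and 207.9 CPM at 3 h, and 285.2, 273.4 and 153.6 CPM at 6 h. They held 196.4, 176 and 759.3 CPM at 12 h, 364.2, 474.6 and 191.6 CPM at 24 h, 714.6, 767.1 and 253.4 CPM at 36 h, and 253.3, 204.3 and 165.4 CPM at 48 h. Here the 12 h mean of 377.2 ± 331 CPM (SD, n = 3) rested on library III, and libraries I and II of 12 h lay between the lowest and highest 6 h libraries. This gene was 1 of only 2 members in which library III was the highest of the 12 h group. It was also 1 of 5 members near baseline at 36 h, the time at which 21 of 38 were low. Its log2 fold change at 36 h against 3 h was 1.22 (SE 0.50, adjusted p = 0.148, edgeR), and library III of 36 h lay below library I of 3 h.

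**Figure D4:**
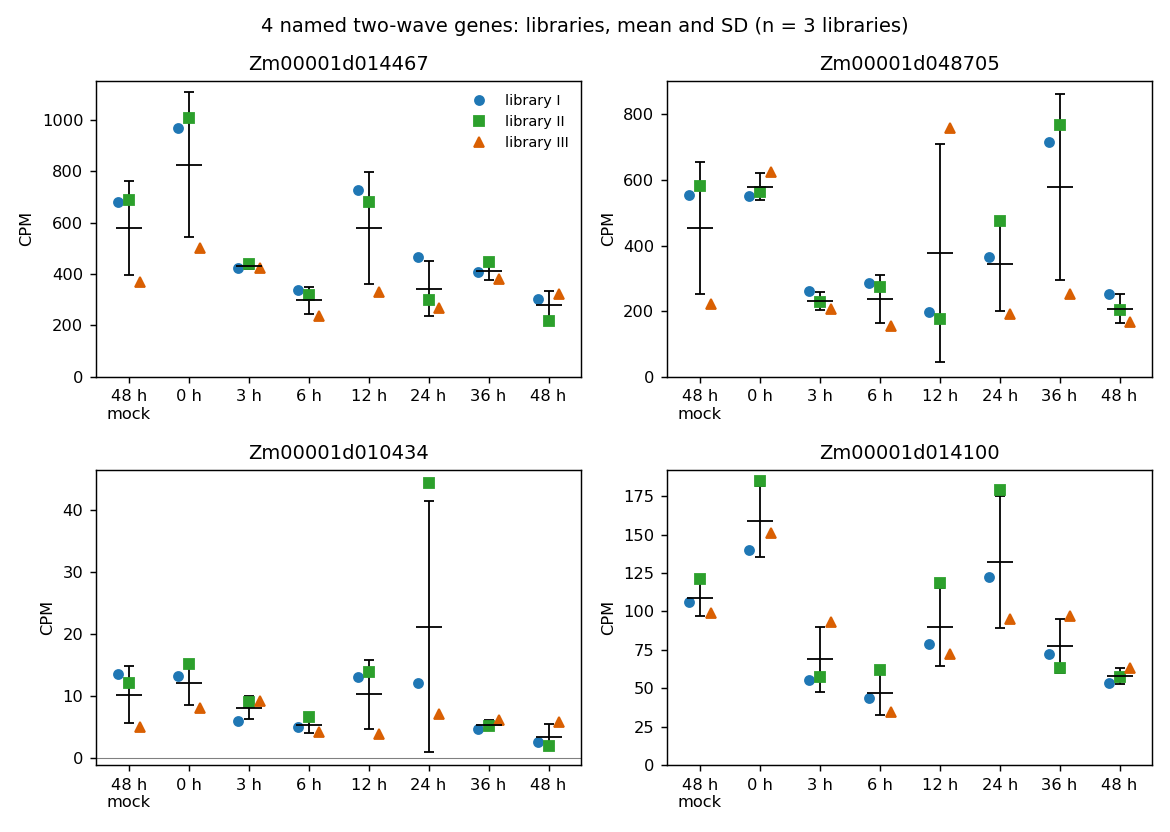
CPM of 4 members in each library, by group, with the mean (bar) and SD (whiskers) of 3 libraries. Zm00001d048705 has 759.3 CPM in library III of 12 h and 196.4 and 176 CPM in libraries I and II, the reverse of Zm00001d014467 with 329.6 CPM against 728.9 and 681.1 CPM.

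The 3, 24 and 36 h libraries did not enter the choice of members. At 3 h, 24 members were near baseline, 11 lay between the limits and 3 were low. The range ran from -1.10 to 1.33 around a median of -0.16, and 35 members had a lower mean at 3 h than at 0 h. At 24 h, 17 members were near baseline, 17 between and 4 low, with a median of -0.32. At 36 h, 5 were near baseline, 12 between and 21 low, with a median of -0.82. Among the 19308 genes with a baseline level, 0.767% were low at 3 h, 0.979% at 24 h and 0.896% at 36 h, and 90%, 87.5% and 93.8% were near baseline. These positions use the baseline, whose libraries did enter the choice, and are given without a test. Of the 38 members, 19 were low at 36 h and not at 24 h, 2 were low at both times, 2 at 24 h only and 15 at neither.

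By library (I, II, III), the median member had 19.4, 19.3 and 14.6 CPM at 3 h, 16.9, 20.3 and 7.79 CPM at 24 h, and 11.3, 10.8 and 9.62 CPM at 36 h. In this median, all 36 h libraries lay below all 3 h libraries, whereas library III of 24 h lay below every library of both times. Library III was the lowest of its group for 34 of 38 members at 24 h, for 24 at 36 h and for 16 at 3 h. The corresponding shares of the genes with a baseline level were 25.3%, 44.6% and 34.8%. At 24 h, lanes 6 and 7 held 18.9 and 16.4 CPM in library I and 7.92 and 8.21 CPM in library III.

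Tests were made only between groups that the choice did not use, with edgeR's quasi-likelihood test across all 23753 genes and Benjamini-Hochberg adjustment. The main fit held all 24 libraries, so libraries of the choice entered its spread, its SEs and its p-values. At 36 h against 3 h, 34 of the 38 members were lower and 4 higher, with a median log2 fold change of -0.79 (0.009 over all genes) and a range of -2.92 to 1.22. The SEs of single members ran from 0.28 to 0.88. At an adjusted p below 0.05, 0 members were lower (3.01% of all genes) and 0 higher (3.08% of all genes). The smallest adjusted p was 0.0506, 15 members had an unadjusted p below 0.05 (22.3% of all genes had one), and DESeq2 called 6 members lower (5.25% of all genes). All 3 libraries of 36 h lay below all 3 of 3 h in 20 members, against 13.3% of all genes. The main fit did not use the library numbers, which the libraries of these times share. That equal numbers mark pairs is not established. Correlations of their deviations were 0.115, 0.145 and 0.164, against 0.083 and 0.076 between libraries I and II. With the library number as a replicate block, the count was 7 lower (4.61% of all genes). It was 16 lower when the model held no other group (4.65% of all genes). With library III of every group left out it was 22 lower (13.9% of all genes) and 3 higher (13.8% of all genes). Libraries I and II differed by 2.68 times counting error at 3 h and 6.19 times at 36 h. Pairs with library III reached 8.28 to 21.7 times there, so the fit without library III rests on a smaller spread. Whether libraries I and II are independent replicates was not tested. Leaving out 1 library, the count was 1 lower without library III of 3 h or of 36 h (1.86% and 4.22% of all genes). It was 5 lower without library III of 12 h (3.76%) and 6 lower without library III of the mock (3.51%). The median was below 0 in every one of these fits, between -0.88 and -0.76.

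At 36 h against 24 h, 32 members were lower and 6 higher, with a median log2 fold change of -0.73 (0.01 over all genes). The test called 1 member lower (7.23% of all genes) and 0 higher (3.98% of all genes), 8 members had an unadjusted p below 0.05 (29% of all genes had one) and DESeq2 called 4 lower (9.89% of all genes). The member called was Zm00001d010434. It held 4.59, 5.12 and 6.12 CPM in the 36 h libraries (I, II, III) and 12.1, 44.4 and 7.03 CPM in those of 24 h. It fell, with a log2 fold change of -2.11 (SE 0.61, adjusted p = 0.0328, edgeR). Its 36 h and 24 h libraries did not overlap, and the size of the difference rested on library II of 24 h, without which the log2 fold change was -0.87 (adjusted p = 0.432, edgeR). On lane 7, which was not analysed for this library, it was -0.09, and with libraries I and II of each group summed it was -1.30 (adjusted p = 0.559, edgeR). Those 2 fits called 0% and 0.0126% of all genes, so the loss of the call in them says little about this gene. Its call was also lost when library I, II or III of 36 h was left out (adjusted p = 0.0959, 0.127 and 0.0554, edgeR). In the other groups this gene held 13.6, 12.1 and 4.89 CPM in the mock, 13.2, 15.1 and 8.10 CPM at 0 h, 5.90, 9.06 and 9.21 CPM at 3 h, 4.88, 6.64 and 4.18 CPM at 6 h, 13.04, 13.9 and 3.85 CPM at 12 h, and 2.49, 1.94 and 5.81 CPM at 48 h. Library III was the lowest in the mock, at 0, 6, 12 and 24 h, and the highest at 3, 36 and 48 h. Over all 38 members, the test called 0 when library II of 24 h, or I or II of 36 h, was left out, and 0.922%, 6.22% and 0.598% of all genes. It called 10 lower without library III of 24 h (13.9% of all genes), 3 lower and 1 higher without library III of 36 h (6.54% and 3.19%), and 2 lower without library III of 12 h (8.04%). The median of -0.73 was -0.43 without library II of 24 h, -0.39 on lane 7 and -1.03 without library III of 24 h.

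At 24 h against 3 h, 22 members were lower and 16 higher, and the median log2 fold change was -0.18 (0.02 over all genes). The test called 1 member higher (6.86% of all genes) and 0 lower (5.08% of all genes), 4 had an unadjusted p below 0.05 (29.4% of all genes had one) and DESeq2 called 1 higher (9.04% of all genes). Zm00001d014100 held 122.6, 179.2 and 95.1 CPM in the 24 h libraries (I, II, III) and 55.6, 57.4 and 93.4 CPM in those of 3 h. It rose, with a log2 fold change of 0.95 (SE 0.28, adjusted p = 0.0345, edgeR). The groups did not overlap, though library III of either time lay close to the other. The call was lost when library I or library II of 3 h was left out (adjusted p = 0.123 and 0.133, edgeR) and when library II of 24 h was (adjusted p = 0.252, edgeR). The count was then 0, with 5.19%, 3.80% and 3.08% of all genes called in these fits. It was 2 without library III of 24 h or of 12 h, with 21.4% and 13.3% of all genes called. Without library III of 24 h the median turned to 0.13. The gene held 105.9, 121.3 and 99.1 CPM in the mock, 139.9, 184.5 and 151.0 CPM at 0 h, 43.8, 61.9 and 34.5 CPM at 6 h, 78.7, 118.7 and 72.3 CPM at 12 h, and 53.4, 57.4 and 63.5 CPM at 48 h. Its mock library III was the lowest of the mock here too, by less than in the median member. At 36 h it had 72.6, 63.0 and 97.1 CPM, and its difference from 24 h did not pass in edgeR (log2 fold change -0.85, SE 0.28, adjusted p = 0.053, edgeR). DESeq2 gave an adjusted p of 0.0237, and 5 of 16 alternative edgeR fits called it, with adjusted p-values over all 16 from 0.000741 to 1.

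**Figure D5:**
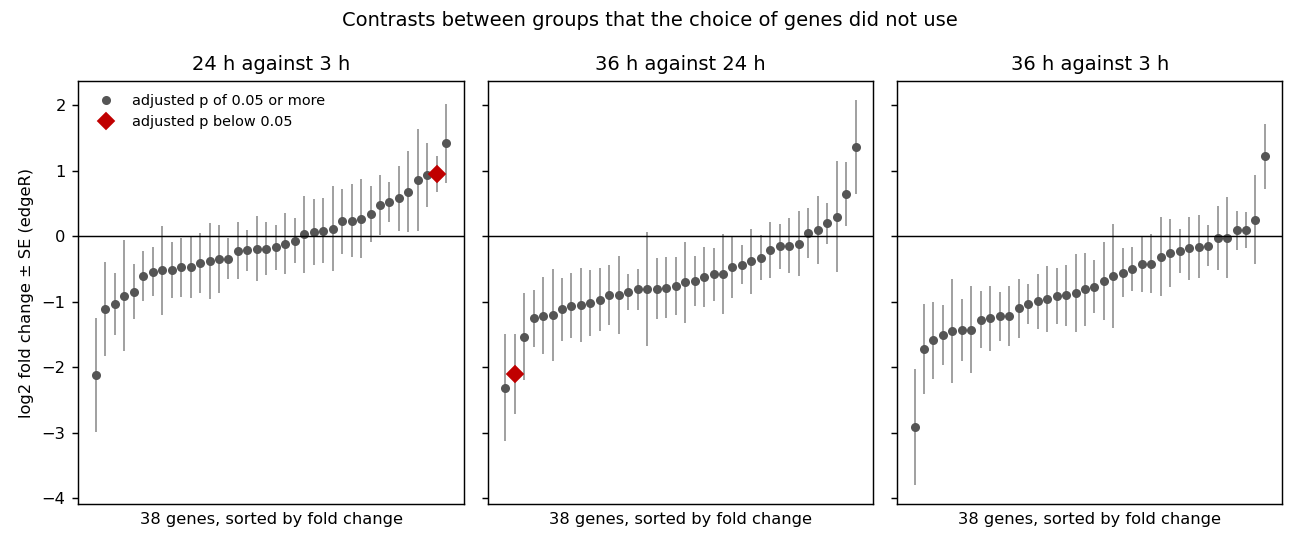
edgeR log2 fold change of the 38 members with its SE, sorted within each of the 3 contrasts between groups outside the choice. The spread behind each SE was estimated from all 24 libraries, those of the choice included. Most points lie below 0 at 36 h against 3 h (34 of 38) and at 36 h against 24 h (32 of 38), and 1 member passes the test (diamond) in each of the first 2 panels.

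Length was a property that the choice did not use. Gene lengths, recovered from the deposited RPKM and counts, had a median of 1848 bp among the members, with a range of 399 to 9918 bp, whereas the genes with a baseline level had a median of 3948 bp. Only 6 members were longer than the median of all genes, 3513 bp. The named members Zm00001d014467, Zm00001d048705, Zm00001d010434 and Zm00001d014100 measured 3467, 2077, 809 and 780 bp. Among genes of like length, the 5416 with a baseline level and 1286 to 3271 bp, the middle range of the members, had medians on the groups of the choice of 0.03 at 6 h, 0.11 at 12 h and 0.05 at 48 h. Library III differed from libraries I and II by a median of -1.52 at 12 h and -1.38 in the mock in the members, against 0.12 and -0.05 in these genes. The 12 h and mock libraries entered the choice of members, so this difference is a description and no separate support. Whether length bears on it was not tested. Level entered the choice through its minimum of 3 CPM and through the 1 added to CPM before the log2. The members had a median of 18.5 CPM over 24 libraries, against 24.5 CPM in the genes with a baseline level.

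All 38 members had a negative slope on the first principal component, as had 9712 of all 23753 genes, and the median member stood at percentile 0.712, on a scale of 0 to 100 with the most negative slope of all genes at the low end. The component was computed from the same libraries that chose the members, so this describes where they lie and is no separate support. The libraries with high member levels, such as I and II of 0 h at -62.3 each, lay at its negative end, and those with low levels, such as library III of the mock at 52.0, at its positive end.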

How the data were processed

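Libraries of maize roots were sequenced from both ends with reads of 150 bases on 2 lanes. The deposited count table holds raw read counts per gene for 24 libraries, and the authors' second table holds RPKM values for 47 lanes. The submitters' processing notes list STAR, featureCounts and edgeR, without versions. Build, annotation and strand setting: not given in the sources used here, so counts of gene copies and overlapping genes are uncertain. Reads per lane and the length of each gene follow from both deposited tables together: 100% of lane values came out whole within 0.001 reads, and lanes summed to the counts exactly. Whether these lengths include introns is not given. Lane 7 of library II of 24 h was not analysed here.

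Members were found on CPM from column sums. The members and lists were chosen with earlier results of these data known. Tests were run in R 4.3.3 using edgeR 4.0.16, with TMM factors (range 0.892 to 1.07), 1 model of 8 groups and no low-count filter, after the steps were tested on simulated data. DESeq2 1.42.0 was an alternative. No gene in the table had fewer than 152 reads in all, and members had 5 or more in each library. Libraries of a group differed by more than counting error. Gene lists could not be matched. Named members are the 2 of highest mean CPM and the 2 called with the smallest adjusted p in the contrast with most calls. Since 2 contrasts tied with 1 call each, the call of each was taken. Same-numbered libraries deviated together at 36 h and 3 h in all 3 pairs (correlations across genes of 0.115, 0.145 and 0.164), each closest to its own number. In the other contrasts not every library was closest to its own number. All these correlations are small, and libraries I and II of 36 h and 3 h reached 0.083 and 0.076 across numbers, so a pairing is not established. The main fit left the library number out, and the fit with the replicate block took it in.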

Additional observations from a re-analysis of the deposited data

How the results depend on the processing

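The counts of members called were 1 at 24 h against 3 h, 1 at 36 h against 24 h and 0 at 36 h against 3 h. These fits called 11.9%, 11.2% and 6.10% of all genes. Leaving out 1 library gave 0 to 2, 0 to 10 and 0 to 6 (3.08% to 21.4%, 0.598% to 25.7% and 1.73% to 8.23% of all genes). In this order, only the groups compared gave 0, 0 and 16 (0.842%, 0% and 9.78% of all genes). The replicate block gave 2, 3 and 7 (14.2%, 14.4% and 9.23% of all genes). Lane 6 gave 6, 12 and 1, the last higher (45.3%, 43.5% and 10.6% of all genes). Lane 7 gave 0, 0 and 2 (1.25%, 0% and 3.72% of all genes). Libraries I and II summed gave 0, 0 and 0 (0.147%, 0.0126% and 0.00842% of all genes), and DESeq2 gave 1, 4 and 6 (16.4%, 16.2% and 10.4%). Where a fit called almost no gene, its 0 says nothing about the members. RLE size factors changed only the last, to 1 (6.15% of all genes), and the filter on CPM changed none. Chosen after seeing the data, library III of every group left out gave 16 higher and 4 lower, 2 higher and 28 lower, and 3 higher and 22 lower. That is 20, 30 and 25 in all, against 35.8%, 45.7% and 27.7% of all genes. These fits rest on libraries I and II, which in most groups were more alike than either was with library III. The 24 h libraries out of the model gave 3 at 36 h against 3 h (9.25% of all genes). The cause of these differences was not tested. At 36 h and 3 h alone, each library was closest to its own number, by small correlations that do not establish a pairing. The main fit left the number out. The block is an alternative in every contrast. Outside 36 h against 3 h, same-number correlations ran from -0.101 to 0.201, and not every library was closest to its own number.

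The median fold change of members kept its sign in every fit at 36 h against 24 h and at 36 h against 3 h (-0.43 to -1.03 with 1 library left out at 36 h against 24 h, and -0.52 on lane 6 at 36 h against 3 h). At 24 h against 3 h it ran from -0.32 to 0.13 with 1 library left out, turning to 0.13 without library III of 24 h, 0.21 on lane 6 and 0.11 without library III of every group. Zm00001d014467 turned to 0.12 at 36 h against 3 h on lane 6, and Zm00001d010434 to -0.49 at 24 h against 3 h on lane 7 (1.42 over both lanes, adjusted p = 0.121, edgeR). The choice itself returned 43 genes with TMM scaling, 48 with an offset of 0.5, 42 and 28 with minimum means of 1 and 10 CPM, 110 by the median of the libraries, 73 on lane 6 and 26 on lane 7. It returned 125 without library III of 12 h and of the mock, and 103 and 176 on library I or II alone. The lowest member value rests on 5 reads, so single libraries of the weakest members are imprecise.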
